A study of Mus musculus with 4 samples.

Results

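Small leucine-rich proteoglycans are a family of secreted proteins of connective tissue, and 10 of their genes were examined here in sorted mouse periosteal cells: Dcn, Bgn, Aspn, Lum, Fmod, Kera, Prelp, Omd, Ogn and Podn. They were chosen by gene name from a table of 54532 genes, and all 10 were in it. Of the 10, 9 had counts and passed the filter on low counts, and Kera had none.

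The proteins share a core of leucine-rich repeats, which folds into a curved solenoid and binds collagen, and many carry chondroitin, dermatan or keratan sulfate chains. In bone and periosteum they are known for setting the diameter and spacing of collagen fibrils and for binding growth factors such as TGF-beta. The family is divided into classes by sequence: decorin (Dcn), biglycan (Bgn) and asporin (Aspn) are of class I, lumican (Lum), fibromodulin (Fmod), keratocan (Kera), PRELP (Prelp) and osteomodulin (Omd) of class II, osteoglycin (Ogn) of class III and podocan (Podn) of class V.

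The comparison was between CtskCre;mTmG;Sfrp4-/- mice and CtskCre;mTmG;wt mice, called Sfrp4-/- and WT. Sfrp4 encodes a secreted Wnt-binding protein, Ctsk drives the Cre recombinase, and mTmG is a reporter from which Cre-expressing cells and their descendants make GFP, so cells of both genotypes carried Cre and the reporter. The Ctsk gene is best known from osteoclasts, and Cre under its control marks periosteal mesenchymal cells as well. All mice were 4 weeks old and untreated, and GFP-positive, CD200-positive cells of long-bone periosteum were sorted after exclusion of cells with CD105, 6C3, Thy1.2, Ter119, CD31 or CD45. There were 2 libraries per genotype, each from cells pooled from 3 mice, so the p-values measure the spread between pools and not between animals.

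The libraries held 17119332 to 18750003 counts. Sfrp4 was at 11.4 and 12.1 CPM (counts put on one library size, with a correction for composition) in Sfrp4-/- libraries and at 90.8 and 108 CPM in WT libraries, without overlap. Its log2 fold change (Sfrp4-/- minus WT) was -3.08 ± 0.31 (SE) with an edgeR adjusted p of 0.377 and a DESeq2 adjusted p of 4.15e-13. Which part of the gene is deleted is not given in the sources used here, so the 211 and 249 counts that remained in Sfrp4-/- libraries could not be placed inside or outside it. Ctsk was between 1055 and 2050 CPM and Cd200 between 442 and 669 CPM in the 4 libraries. Ptprc, encoding CD45, was at 5.87 to 9.45 CPM, and Thy1 had 0 counts in every library. With edgeR's quasi-likelihood test and Benjamini-Hochberg adjustment, 0 of 13737 tested genes (0.0%) had an adjusted p under 0.05. An unadjusted p under 0.05 was found for 291 genes (2.12%). DESeq2 called 5 genes and limma-voom 0.

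Most members lie in 3 clusters of the genome (coordinates as in the deposited table, mm10). Dcn (97479609 to 97518143), Lum (97565128 to 97572703) and Kera (97606879 to 97613692) follow one another on the plus strand of chromosome 10 within 134 kb. Between Lum and Kera lies the noncoding gene 4930473O22Rik, which had 0 counts. Aspn (49544443 to 49567565), Omd (49582462 to 49592822) and Ogn (49608046 to 49624501) stand on the plus strand of chromosome 13 within 80.1 kb. All 3 lie inside the span of the minus-strand gene Cenpp, which had 288 counts over the 4 libraries and shares 0.297% of the exon bases of Aspn. This cluster is on the chromosome of Sfrp4, 29.9 Mb away. Prelp and Fmod are on chromosome 1, Bgn on the X chromosome and Podn on chromosome 4. The antisense gene Gm15851 shares 9.68% of the exon bases of Prelp but had 0 counts. Between Prelp and Fmod, Gm18970 also had 0 counts and Gm1627 had 19.

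Promoter sequences from RefSeq (GRCm38.p6) were available for 8 of the 10 members. The 150 bases before the start of transcription are shown for the neighbours Aspn, Omd and Ogn, because these genes share a cluster and differ widely in level, and for Bgn, a member of Aspn's class outside a cluster. Capitals mark matches on either strand to any of 4 motifs, none of which overlaps another there. One is the TATA box, spelled TATAAA. Another is the CCAAT box, searched for by its name. The core site of RUNX factors is spelled TGTGGT. The site of TCF/LEF factors, the transcription factors of Wnt signalling, is spelled CTTTGAT.
Aspn, chr13:49544293-49544442, plus strand: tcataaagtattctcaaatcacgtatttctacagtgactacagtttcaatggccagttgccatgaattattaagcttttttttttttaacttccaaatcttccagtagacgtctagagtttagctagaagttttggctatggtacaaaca
Omd, chr13:49582312-49582461, plus strand: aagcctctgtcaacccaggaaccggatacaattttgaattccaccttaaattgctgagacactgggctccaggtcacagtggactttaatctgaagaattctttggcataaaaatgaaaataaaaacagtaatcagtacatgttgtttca
Ogn, chr13:49607865-49608014, plus strand: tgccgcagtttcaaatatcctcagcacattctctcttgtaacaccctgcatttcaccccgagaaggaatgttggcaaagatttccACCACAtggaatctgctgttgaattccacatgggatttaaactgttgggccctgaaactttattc
Bgn, chrX:73483451-73483600, plus strand: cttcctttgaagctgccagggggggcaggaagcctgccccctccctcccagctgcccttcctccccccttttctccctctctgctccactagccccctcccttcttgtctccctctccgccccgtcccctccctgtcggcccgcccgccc

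The neighbours on chromosome 13 have AT-rich windows, with a GC content of 33.3% for Aspn, 38.0% for Omd and 44.0% for Ogn. The Bgn window is 70.0% GC, and the median over 32851 RefSeq promoters is 54.0%. Among the 4 windows the only match is a RUNX core on the minus strand of Ogn, a motif that 8.40% of all such windows hold. The TATA box is found in 7.57%, CCAAT in 24.5% and the TCF/LEF site in 1.80% of them. No match means only that these letters are not in the window.

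Lum and Dcn made up most of the family's transcripts in both genotypes. Levels of different genes were compared as TPM, counts per base of gene length scaled to the same total in every library. Together Lum and Dcn held 85.7% and 82.3% of the family's summed TPM in Sfrp4-/- libraries and 86.7% and 84.5% in WT libraries. Lum had 7406 and 3482 TPM in Sfrp4-/- libraries and 9304 and 6355 TPM in WT libraries. Dcn had 4119 and 2824 TPM in Sfrp4-/- libraries and 6137 and 4303 TPM in WT libraries. By their mean over the 4 libraries, Lum ranked 11 and Dcn 24 among all genes. Lum stood above Dcn within each library, by 1.23-fold to 1.80-fold, but their ranges over the libraries overlapped. This order depended on the length used. Dcn has 5838 bases by the deposited length, but its longest protein-coding transcript has 1758. With the longest protein-coding transcript of each gene Lum was at 0.453 times Dcn, an alternative chosen after seeing the data.

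Below these came Bgn, with 944 and 548 TPM in Sfrp4-/- libraries and 1409 and 707 TPM in WT libraries. Omd, whose protein is also called osteoadherin and is made by osteoblasts, had 656 and 651 TPM in Sfrp4-/- libraries and 665 and 1058 TPM in WT libraries. Bgn was the higher of this pair in 2 libraries, the replicates numbered 1, and Omd in the other 2, so the deposited lengths gave no settled order. By the longest transcript of each gene, the mean TPM was 1583 for Bgn and 583 for Omd. By the longest protein-coding transcript it was 1619 and 540, so this order too depended on the length used. Fmod and Ogn were likewise not separated, Fmod being higher in 3 of the 4 libraries. Aspn stood below Ogn by 2.10-fold to 3.44-fold in all 4 libraries. Within the cluster on chromosome 13, the mean TPM of Omd was 30.1 times that of Aspn and 10.9 times that of Ogn.

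Prelp and Podn were the lowest members with counts. Prelp, a heparin-binding member, had 10.1 and 2.02 TPM in Sfrp4-/- libraries and 6.60 and 3.69 TPM in WT libraries. Podn had 14 and 3 counts in Sfrp4-/- libraries and 3 and 18 counts in WT libraries, close to the limit of detection. Kera, a gene known from cornea and tendon, had 0 counts in every library, which allows up to 0.208 and 0.193 TPM in the Sfrp4-/- libraries and 0.249 and 0.197 TPM in the WT libraries at a floor of 3 counts per library. Such limits, and the intervals given further on, cover counting error only. From Lum to Podn the mean TPM spanned a factor of 19157.

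**Figure D1:**
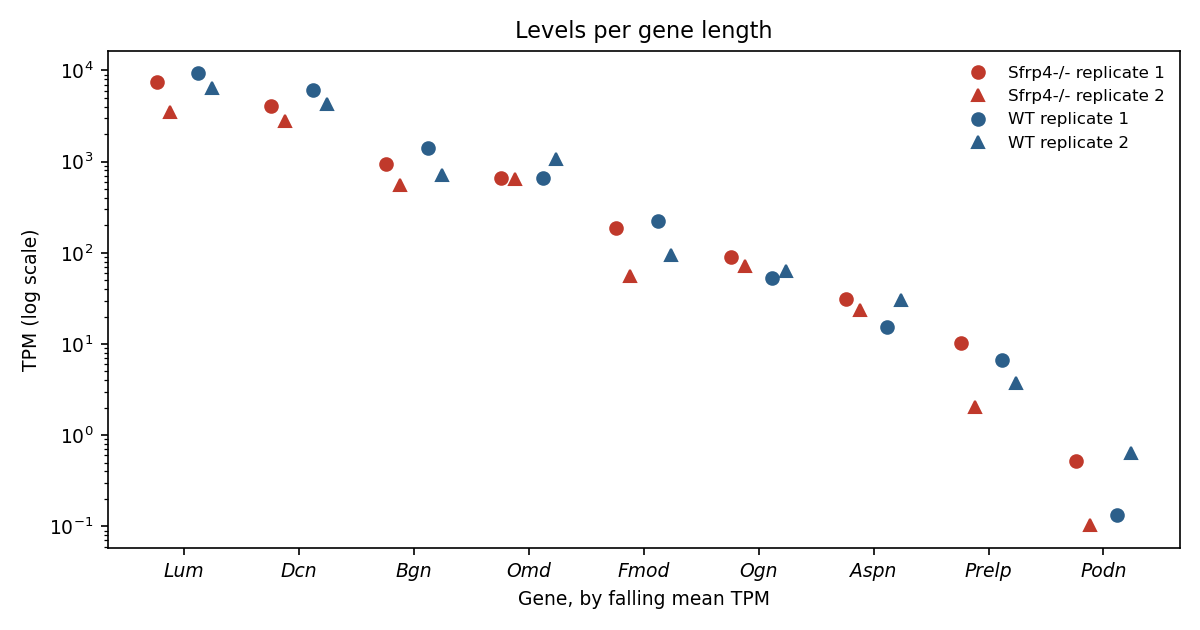
Levels per gene length of the 9 members with counts, in TPM on a log axis, with 1 point per library (Sfrp4-/- in red to the left of WT in blue, circles for replicate 1 and triangles for replicate 2). Lum and Dcn lie above all others in every library, and by the deposited lengths the ranges of Bgn and Omd and of Fmod and Ogn overlap.

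The genotype comparison asked whether loss of Sfrp4 went with a change in these genes, and none of the 9 tested members passed. The edgeR adjusted p was 1.00 for each, and 0 of the 9 had an unadjusted p under 0.05, against 2.12% of all tested genes. DESeq2 and limma-voom also called 0 members, with 1 (Dcn) and 0 at an unadjusted p under 0.05, against 2.28% of all tested genes with DESeq2 and 1.96% with limma-voom. In a simulation of 13737 genes with the spread of these libraries, the test found 2.99% of genes changed 2-fold, 32.8% of those changed 4-fold and 65.2% of those changed 8-fold. That simulation changed 200 genes and drew each gene independently, so its shares may not hold for these libraries, where 0 of 13737 genes passed. Changes of 2-fold were mostly missed in it, so the lack of a call here does not show the lack of a change. In bulk samples, fewer cells of a type and less RNA per cell cannot be told apart.

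Class I held Dcn, the member whose groups stood apart most clearly. Dcn had 8217 and 5480 CPM in Sfrp4-/- libraries and 12622 and 9772 CPM in WT libraries. Both Sfrp4-/- libraries were below both WT libraries, and remained so when scaled by library totals alone. The means were 6848 ± 1935 CPM in Sfrp4-/- and 11197 ± 2016 CPM in WT libraries (SD, n = 2 each). The log2 fold change, given throughout as Sfrp4-/- minus WT, was -0.71 ± 0.42 (SE). It stayed below 0 with each library left out, between -1.03 and -0.44.

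Bgn, on the X chromosome, had 1967 and 1111 CPM in Sfrp4-/- libraries and 3026 and 1677 CPM in WT libraries, so that the groups overlapped. Its log2 fold change was -0.61 ± 0.46 (SE, n = 2 each), and -0.12 without WT replicate 1, the highest library. Aspn, whose protein binds TGF-beta and is known from cartilage and periodontal ligament, had 25.1 and 18.6 CPM in Sfrp4-/- libraries and 12.7 and 27.7 CPM in WT libraries. The WT libraries were the lowest and the highest of the 4, and the log2 fold change of 0.11 ± 0.43 turned to -0.34 without WT replicate 1 and to -0.12 without Sfrp4-/- replicate 1.

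In class II, Lum had 6195 and 2833 CPM in Sfrp4-/- libraries and 8024 and 6051 CPM in WT libraries. Sfrp4-/- replicate 2 was well below the other 3 libraries, and Sfrp4-/- replicate 1 was within the WT range. The log2 fold change was -0.64 ± 0.48 (SE, n = 2 each), and it was -1.31 without Sfrp4-/- replicate 1 and -0.17 without Sfrp4-/- replicate 2. Fmod, which binds collagen at the same site as lumican, had 209 and 60.9 CPM in Sfrp4-/- libraries and 260 and 123 CPM in WT libraries. The replicates within a genotype differed more than the genotypes did. The log2 fold change of Fmod, -0.51 ± 0.62, changed sign without Sfrp4-/- replicate 2 (0.14) and without WT replicate 1 (0.14), and was -1.65 without Sfrp4-/- replicate 1.

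Omd had 504 and 486 CPM in Sfrp4-/- libraries and 527 and 925 CPM in WT libraries. Both Sfrp4-/- libraries were below both WT libraries on this scale, by a small margin for WT replicate 1. With library totals alone the groups overlapped, at 498 and 577 CPM of the unscaled total in Sfrp4-/- and 461 and 898 CPM in WT libraries. Its log2 fold change was -0.55 ± 0.38 (SE, n = 2 each), and -0.096 without WT replicate 2. Prelp had 12.5 and 2.43 CPM in Sfrp4-/- libraries and 8.40 and 5.19 CPM in WT libraries, with the Sfrp4-/- libraries at both ends of the range. Its log2 fold change of 0.14 ± 0.74 was -1.48 without Sfrp4-/- replicate 1 and 0.89 without Sfrp4-/- replicate 2.

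Ogn, the class III member, had 1.66-fold between its highest and lowest library on the CPM scale, the narrowest span among the members, but with library totals alone it had 1.88-fold and Dcn, at 1.70-fold, the narrowest. It had 79.0 and 61.3 CPM in Sfrp4-/- libraries and 47.5 and 63.6 CPM in WT libraries, which overlapped. With library totals alone both Sfrp4-/- libraries were above both WT libraries, at 78.0 and 72.7 CPM of the unscaled total in Sfrp4-/- and 41.6 and 61.7 CPM in WT libraries. Its log2 fold change was 0.34 ± 0.32 (SE, n = 2 each) and stayed above 0 with each library left out, between 0.14 and 0.56. For Podn, of class V, the log2 fold change was -0.48 ± 1.44, and it changed sign without Sfrp4-/- replicate 2 (0.28) and without WT replicate 2 (1.13).

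**Figure D2:**
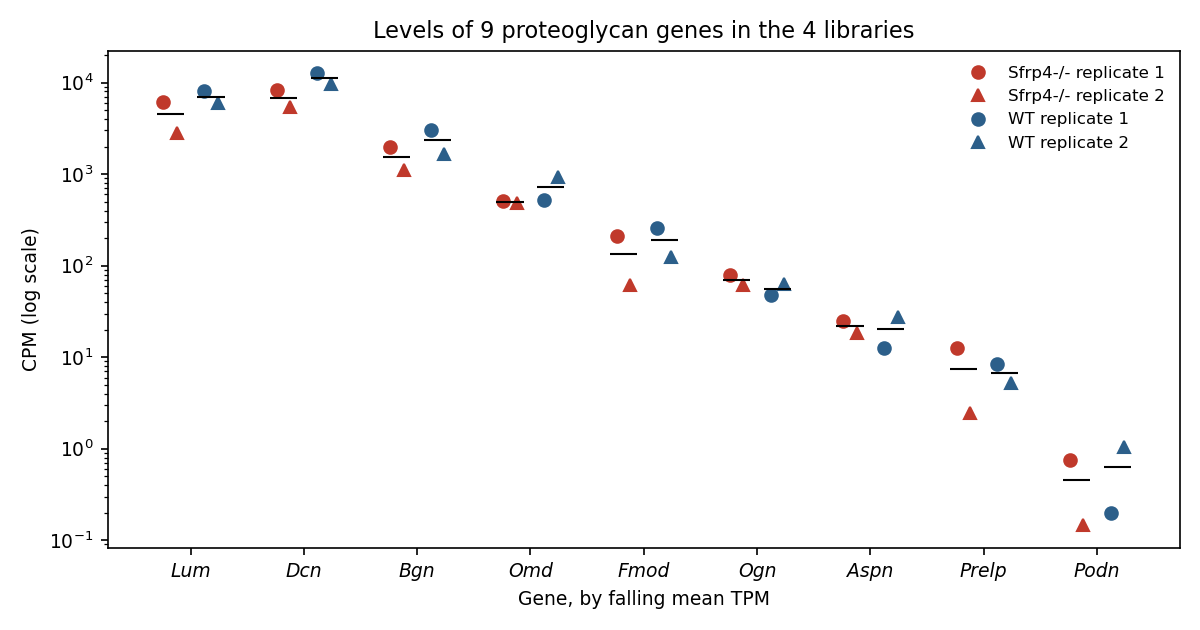
CPM of the 9 members with counts on a log axis, with 1 point per library (Sfrp4-/- in red to the left of WT in blue) and black lines at the means of the 2 libraries. For Dcn and Omd both Sfrp4-/- points are below both WT points, while for the other members the groups overlap; with library totals alone Omd overlaps too and the Sfrp4-/- points of Ogn are above those of WT.

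Of the 9 tested members, 6 had a log2 fold change below 0, against 49.6% of all tested genes, and their median was -0.51, against 0.0031 over all tested genes. For Dcn and Omd, or 2 of the 9, both Sfrp4-/- libraries were below both WT libraries, an order found for 12.6% of all tested genes. For 0 of the 9 were both above, against 15.0% of all tested genes. The median depended on single libraries. It was -1.08, with 8 members below 0, without Sfrp4-/- replicate 1, and 0.14, with 4 below 0, without Sfrp4-/- replicate 2. It was -0.34 without WT replicate 1 and -0.17 without WT replicate 2, with 6 members below 0 in each case. With library totals alone the median over all tested genes moved to 0.24 and that of the members to -0.34.

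**Figure D3:**
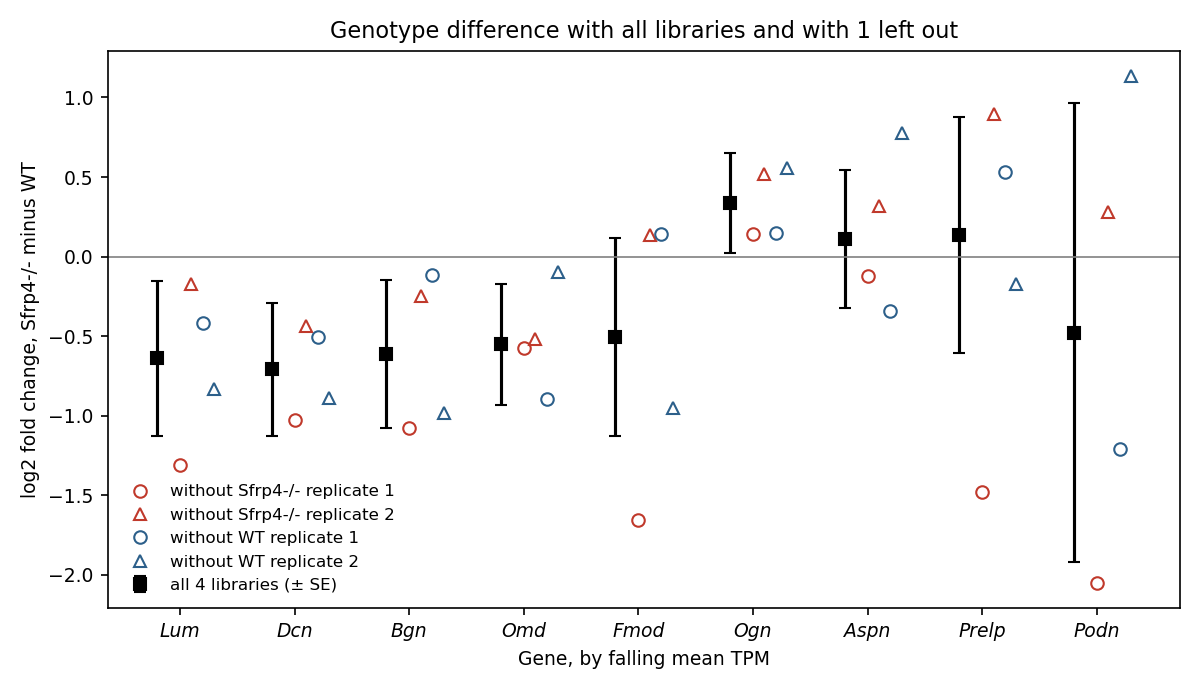
Log2 fold change, Sfrp4-/- minus WT, of the 9 tested members, with black squares and bars for the value and its SE from all 4 libraries and open symbols for the value with 1 library left out. Dcn, Lum, Bgn and Omd stay below 0 and Ogn stays above 0 in all 4 cases, whereas Fmod, Aspn, Prelp and Podn cross 0.

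Summed over the 10 genes, the family took 1.70% (95% Wilson interval 1.694% to 1.706%) and 1.19% (1.187% to 1.197%) of all counts in Sfrp4-/- libraries. In WT libraries it took 2.15% (2.142% to 2.155%) and 1.81% (1.804% to 1.816%). The groups did not overlap, with means of 1.45% ± 0.359 in Sfrp4-/- and 1.98% ± 0.239 in WT libraries (SD, n = 2 each). These sums are mostly counts of Dcn and Lum, which had 189266 and 120317 of the 367800 counts in WT replicate 1. They are therefore not separate from the values of those genes. On the TPM scale the sums overlapped, at 13442 and 7658 TPM in Sfrp4-/- and 17814 and 12616 TPM in WT libraries. With 2 libraries against 2, the smallest two-sided exact permutation p is 0.333.

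The libraries within a genotype differed in 2 patterns. In the Sfrp4-/- libraries, replicate 2 was lower than replicate 1 for all 9 members with counts. In the WT libraries, replicate 2 was lower for 5 members, Lum, Dcn, Bgn, Fmod and Prelp, and higher for the neighbours Omd, Ogn and Aspn of chromosome 13 and for Podn. The log2 ratio of WT replicate 2 to WT replicate 1 was 0.81 for Omd, 0.42 for Ogn and 1.13 for Aspn, against -0.41 for Lum, -0.37 for Dcn and -0.85 for Bgn. In Sfrp4-/- libraries it was -0.050 for Omd, -0.36 for Ogn and -0.43 for Aspn, against -1.13 for Lum, -0.58 for Dcn and -0.82 for Bgn. Fmod and Prelp had the widest gap between Sfrp4-/- libraries among members above 1 CPM, at -1.78 and -2.36.

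Profiles over the 4 libraries were set side by side as the root mean square difference of centred log2(CPM + 1) values. Among members, Lum and Dcn (0.193), Dcn and Bgn (0.199) and Lum and Bgn (0.201) were the closest pairs. Fmod and Aspn were the least alike on this measure, at 0.993. The added 1 flattens the profile of Podn, at 0.146 to 1.05 CPM, so its pairs look closer than they would without it. The 2633 protein-coding genes used for the next comparison include members of the family. For Lum, the member with the highest mean TPM, the nearest outside the family included Itm2c (0.019), Clcn4 (0.063), Ext2 (0.069) and P3h4 (0.071). With 4 libraries this is a description only. Itm2c, which encodes a membrane protein of the BRICHOS family, had 704 and 313 CPM in Sfrp4-/- and 881 and 670 CPM in WT libraries.

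Because scaling moves all members together, ratios between members were also taken within each library. The share of Ogn in the family's TPM was 0.670% and 0.939% in Sfrp4-/- libraries and 0.295% and 0.505% in WT libraries. The ratio of Ogn to Omd in TPM was 0.137 and 0.111 in Sfrp4-/- libraries and 0.0790 and 0.0603 in WT libraries. The ratio of Ogn to Dcn was 0.0219 and 0.0255 in Sfrp4-/- libraries and 0.00856 and 0.0148 in WT libraries. In this share and in both ratios the Sfrp4-/- libraries were above the WT libraries, without overlap, which was the case for 2 of the 8 ratios computed. Both ratios hold Ogn and were picked out after their values were seen. Among single genes on the CPM scale, both Sfrp4-/- libraries were above both WT libraries for 15.0% of all tested genes and below for 12.6%. No such share was computed for ratios. The ratio of Lum to Dcn was 1.80 and 1.23 in Sfrp4-/- and 1.52 and 1.48 in WT libraries, and that of Fmod to Lum 0.0250 and 0.0159 in Sfrp4-/- and 0.0240 and 0.0150 in WT libraries, with overlap in each case.

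Type I collagen, the fibril protein that these proteoglycans bind, varied more between libraries than Dcn, Lum and Bgn did. Col1a1 and Col1a2 summed to 161123 and 62597 CPM in Sfrp4-/- libraries and to 249851 and 94459 CPM in WT libraries. Per 1000 type I collagen counts there were 51.0 and 87.5 Dcn counts in Sfrp4-/- libraries and 50.5 and 103 in WT libraries. For Lum the numbers were 38.4 and 45.3 in Sfrp4-/- libraries and 32.1 and 64.1 in WT libraries. For Bgn they were 12.2 and 17.8 in Sfrp4-/- libraries and 12.1 and 17.8 in WT libraries. The genotypes overlapped for these 3 genes and for Fmod, Omd, Ogn and Aspn, and within each genotype replicate 2 was the higher library for all except Fmod. Fmod had 1.30 and 0.972 counts per 1000 in Sfrp4-/- and 1.04 and 1.30 in WT libraries.

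**Figure D4:**
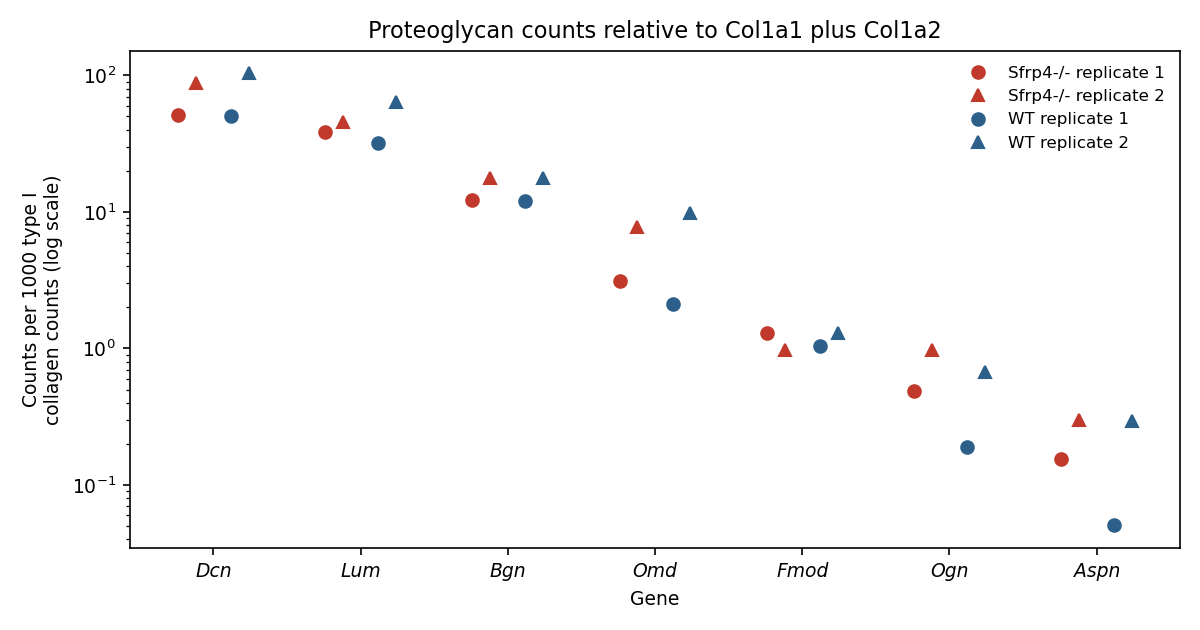
Counts of 7 members per 1000 counts of Col1a1 and Col1a2 together, on a log axis, with 1 point per library (Sfrp4-/- in red to the left of WT in blue, circles for replicate 1 and triangles for replicate 2). The genotypes overlap for all 7, and the triangles lie above the circles of the same genotype except for Fmod in Sfrp4-/- libraries.

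Genes that work with the family were examined as 7 lists of 86 genes, of which 76 were tested. None passed (edgeR adjusted p = 1.00 for each gene named below), and 2 had an unadjusted p under 0.05, against 2.12% of all tested genes. DESeq2 and limma-voom also called 0, with 7 and 5 of the 76 at an unadjusted p under 0.05, against 2.28% and 1.96% of all tested genes. How many genes of a list were below 0 depended on single libraries, and the counts or medians with a library left out are given with each list.

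Enzymes that build chondroitin and dermatan sulfate chains, which Dcn and Bgn carry, had log2 fold changes below 0 for 18 of 20 tested genes, with a median of -0.29 against 0.0031 over all tested genes. Without WT replicate 1 it was 11 of 21 genes (median -0.030) and without Sfrp4-/- replicate 2 it was 14 of 20 (-0.11). It was 20 of 21 without either other library (-0.70 without WT replicate 2 and -0.50 without Sfrp4-/- replicate 1), and 13 of 20 with library totals alone (-0.046). B3galt6, which adds a galactose to the linker between chain and protein, had 15.5 and 11.7 CPM in Sfrp4-/- libraries and 28.4 and 26.1 CPM in WT libraries. The groups did not overlap, and its log2 fold change was -1.003 ± 0.32 (SE, n = 2 each; edgeR unadjusted p = 0.0163). In 5 of the 20 genes both Sfrp4-/- libraries were below both WT libraries, and in 0 both were above, against 12.6% and 15.0% of all tested genes. The summed level of this list was 806 and 490 CPM in Sfrp4-/- and 1099 and 721 CPM in WT libraries.

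Keratan sulfate enzymes, whose chains Lum and Fmod can carry, were below 0 in 4 of 6 tested genes, with a median log2 fold change of -0.17. The median was 0.013 without WT replicate 1, 0.029 without Sfrp4-/- replicate 2 and 0.055 with library totals alone. It was -0.74 without Sfrp4-/- replicate 1 and -0.095 without WT replicate 2. The sulfotransferase gene Chst2 had -0.58 ± 0.38 and the galactosyltransferase genes B4galt4 and B4galt1 had -0.73 ± 0.57 and -0.30 ± 0.34 (SE, n = 2 each). Chst2 was at -0.26 without Sfrp4-/- replicate 2 and at -0.98 without Sfrp4-/- replicate 1, and B4galt4 and B4galt1 changed sign with a library left out. The gene of this list with the lowest p, Chst5, was below 5 CPM on average and is named after its values were seen. It had 7.13 and 4.82 CPM in Sfrp4-/- libraries and 2.80 and 0.641 CPM in WT libraries, both Sfrp4-/- libraries being above both WT libraries. Its log2 fold change was 1.80 ± 0.77 (SE; edgeR unadjusted p = 0.0534), and between 1.08 and 3.21 with a library left out.

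Collagens that small leucine-rich proteoglycans bind or accompany were below 0 in 13 of 14 tested genes, with a median log2 fold change of -0.63. Without WT replicate 1 it was 4 of 14 (median 0.12) and without Sfrp4-/- replicate 2 it was 8 of 14 (-0.094), whereas it was 14 of 14 without Sfrp4-/- replicate 1 (-1.62) and 13 of 14 without WT replicate 2 (-1.18). Col11a1, a chain of the type XI collagen that helps to start fibrils, had 887 and 308 CPM in Sfrp4-/- and 2541 and 909 CPM in WT libraries, a log2 fold change of -1.53 ± 0.67 (SE). Col2a1 had -1.26 ± 0.70 and Col11a2 -1.18 ± 0.70. Without WT replicate 1 these were -0.60 for Col11a1, 0.067 for Col2a1 and -0.063 for Col11a2, and without Sfrp4-/- replicate 1 they were -2.48, -2.04 and -2.12 in the same order. Large proteoglycans and link proteins were below 0 in 6 of 7 genes (median -0.58), with Hapln3 at -0.77 ± 0.45, Hspg2 (perlecan) at -1.07 ± 0.68 and Hapln1 at -0.41 ± 0.42. For that list it was 3 of 7 genes without WT replicate 1 (median 0.49) and 4 of 7 without Sfrp4-/- replicate 2 (-0.051). It was all 7 without Sfrp4-/- replicate 1 (-1.39) and without WT replicate 2 (-0.97). Hspg2 was at -0.11 without WT replicate 1, Hapln3 at -0.32 and Hapln1 at 0.023 without Sfrp4-/- replicate 2. Without Sfrp4-/- replicate 1 they were at -2.09, -1.42 and -1.01 in the same order.

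Proteases and their helpers that process or degrade these proteins were below 0 in 5 of 9 tested genes, with a median log2 fold change of -0.095. It was 1 of 9 without WT replicate 1 (median 0.13), 3 of 9 without Sfrp4-/- replicate 2 (0.044) and 4 of 9 with library totals alone (0.13). It was 7 of 9 without Sfrp4-/- replicate 1 (-0.65) and 6 of 9 without WT replicate 2 (-0.64). The gelatinase gene Mmp2 had -0.73 ± 0.59, Bmp1, whose protein cleaves the propeptide of biglycan, -0.61 ± 0.61, and Mmp9 0.38 ± 0.39 (SE, n = 2 each). Mmp2 was at -0.14 without Sfrp4-/- replicate 2 and at -1.71 without Sfrp4-/- replicate 1, and Bmp1 and Mmp9 changed sign with a library left out. Mmp9, also an osteoclast gene, was at 2086 and 1252 CPM in Sfrp4-/- and 1378 and 1196 CPM in WT libraries. The 7 osteoclast genes examined, of which Mmp9 is 1, summed to 3910 and 3614 CPM in Sfrp4-/- and 2980 and 3503 CPM in WT libraries. Taken singly, 0 of the 7 had both Sfrp4-/- libraries above both WT libraries, against 15.0% of all tested genes.

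Ligands and receptors that bind the family's core proteins were below 0 in 10 of 14 genes, with a median log2 fold change of -0.073. It was 7 of 14 without WT replicate 1 (median 0.023), 6 of 14 without Sfrp4-/- replicate 2 (0.11) and 6 of 14 with library totals alone (0.17). It was 11 of 14 without Sfrp4-/- replicate 1 (-0.60) and 9 of 14 without WT replicate 2 (-0.34). Lrp1, an endocytic receptor for decorin, had 53.1 and 31.4 CPM in Sfrp4-/- libraries and 107 and 63.1 CPM in WT libraries, without overlap (log2 fold change -1.01 ± 0.41, SE; edgeR unadjusted p = 0.0428). It was -0.57 without WT replicate 1 and -1.43 without Sfrp4-/- replicate 1. Tgfb1 was at 67.8 and 41.8 CPM in Sfrp4-/- and 68.3 and 40.7 CPM in WT libraries, a gene named for its ligand's binding to decorin and not by the rule.

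Other genes of the family were below 0 in 3 of 6 tested genes, with a median log2 fold change of -0.043. The median was 0.44 without Sfrp4-/- replicate 2, 0.23 without WT replicate 1 and 0.13 with library totals alone. It was -1.10 without Sfrp4-/- replicate 1 and -0.27 without WT replicate 2. Chad (chondroadherin) had 100 and 45.3 CPM in Sfrp4-/- and 108 and 98.7 CPM in WT libraries. Chadl had -0.60 ± 0.33 and Podnl1 0.30 ± 0.36 (SE, n = 2 each), with ranges of -0.84 to -0.38 and 0.020 to 0.63 when a library was left out. Of Chadl, 19.5% of the exon bases belong also to L3mbtl2 on the other strand. Epyc, next to Kera on chromosome 10 and named after its values were seen, had 93 and 0 counts in Sfrp4-/- libraries and 32 and 0 counts in WT libraries. It shares 40.6% of its exon bases with the antisense gene Gm10754, which libraries without strand cannot separate from it.

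**Figure D5:**
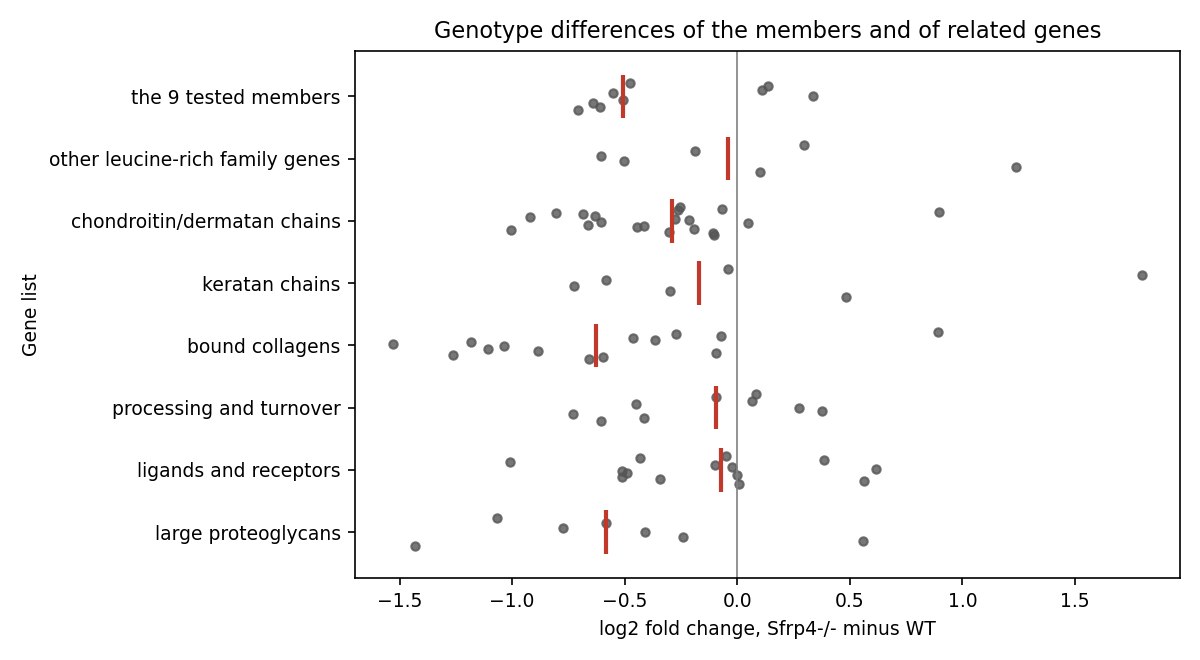
Log2 fold change, Sfrp4-/- minus WT, of each tested gene in the family and in 7 lists of related genes, with 1 point per gene and a red line at the median. The medians of the members, the bound collagens and the large proteoglycans lie at -0.51, -0.63 and -0.58; without WT replicate 1 they were at -0.34, 0.12 and 0.49.

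Markers of several cell types varied over the same libraries. The 9 erythroid genes, all tested and all with log2 fold changes above 0, summed to 2043 and 2638 CPM in Sfrp4-/- libraries and to 730 and 2148 CPM in WT libraries. The 13 myeloid genes, 10 of them above 0, summed to 818 and 1214 CPM in Sfrp4-/- and 619 and 1162 CPM in WT libraries. None of the genes of these 2 lists was at 0 in all libraries. The 9 cartilage genes, 7 of them below 0, summed to 206 and 75.7 CPM in Sfrp4-/- and 511 and 129 CPM in WT libraries. The 10 osteoblast genes, 6 of them below 0, summed to 16703 and 13020 CPM in Sfrp4-/- and 17151 and 17817 CPM in WT libraries. These sums did not overlap, but singly 0 of the 10 had both Sfrp4-/- libraries below both WT libraries, against 12.6% of all tested genes. The 9 tendon and fibrous tissue genes summed to 658 and 386 CPM in Sfrp4-/- and 533 and 480 CPM in WT libraries. The part of these cells in the members' values was not tested. Endothelial and muscle genes summed to at most 15.1 and 3.73 CPM in any library, with Pax7, Myod1 and Myh4 at 0 in all 4.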

How the data were processed

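The authors deposited raw counts per gene with gene lengths. The submitters' processing notes name the mm10 build and the tools HISAT2 2.0.5, CASAVA, DESeq2 1.20.0 and featureCounts 1.00-p3, with no roles, and per the labels' protocols the libraries (SMARTer) carry no strand. The counting options were not given in the sources used here. Columns were matched to samples by the table's first line. Of 54532 genes, 54409 were found in GENCODE M21 and 98.3% of those had the same coordinates.

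Chi-square values for pairs of the 4 libraries were 51.7 to 230 per degree of freedom, beyond sampling noise, and each was used as a replicate. The main test was edgeR 4.0.16 (R 4.3.3; filterByExpr, TMM, glmQLFit, glmQLFTest, genotype only), with Benjamini-Hochberg adjustment over 13737 genes at 0.05. The SE of a log2 fold change was obtained by dividing its size by the root of F. For CPM, totals were multiplied by TMM factors. A count was worth 0.0486 to 0.0667 CPM. TPM used the deposited gene lengths. The test was tested on simulated data (2 false calls).

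The members and lists were chosen with earlier results of these data known. Named genes were all members, and from each list of related genes those with an unadjusted p under 0.05, or otherwise the 3 with the lowest p at 5 CPM or more. Alternatives were RLE factors, library totals, no filter, a filter of 5 CPM in 2 libraries, DESeq2 1.42.0, limma-voom 3.58.1, a replicate block, protein-coding genes only, each library left out, and transcript lengths. One gene that the rule on profiles like that of Lum would name is not reported here.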

Additional observations from a re-analysis of the deposited data

How the results depend on the processing

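No member and no related gene passed under any of the 12 alternatives. The count over all genes, 0 with edgeR and all 4 libraries, was 20 without a filter on low counts, 5 with DESeq2, and 2 to 7 with a library left out. The median log2 fold change of the members ranged from -1.08 to 0.14 with a library left out. Dcn, Lum, Bgn and Omd stayed below 0 and Ogn above 0 in every alternative. With a library left out, Fmod ranged from -1.65 to 0.14, Aspn from -0.34 to 0.78, Prelp from -1.48 to 0.89 and Podn from -2.05 to 1.13. No fold change is given for Epyc, whose replicates numbered 2 had 0 counts. Of the other related genes named, those that changed sign with a library left out were Col1a1 (-1.42 to 0.38), Col1a2 (-1.49 to 0.17), Tgfb1 (-0.38 to 0.43), Mmp9 (-0.038 to 0.71), Col2a1 (-2.04 to 0.067), Bmp1 (-1.55 to 0.13), B4galt1 (-0.57 to 0.036), Hapln1 (-1.01 to 0.023) and B4galt4 (-1.28 to 0.055). Tgfb1, at 0.0082 with TMM factors, was at -0.0012 with RLE factors and with DESeq2. Sfrp4 stayed between -3.19 and -2.84 in every alternative. Prelp was at -0.28 with limma-voom. The cause was not tested. When a library is left out, the genotype with a lone library is taken to have the spread of the other. The TPM of Lum was 1.51 times that of Dcn by the deposited lengths, 1.21 times by the longest transcript and 0.453 times by the longest protein-coding transcript, by construction of the lengths.

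The labels give both genotypes the replicate numbers 1 and 2 without saying whether a number marks a shared day or batch. By chi-square per degree of freedom, libraries of different genotype and the same number were the closest pairs, at 51.7 for number 1 and 61.1 for number 2. Pairs within a genotype were at 133 for Sfrp4-/- and 163 for WT. Pairs that differed in genotype and number were at 84.0 and 230. Whether the number marks a batch was not tested. Deviations of the libraries numbered 1 from their genotype mean correlated across genes (r = 0.365, 13737 genes, which are not independent). With the replicate number as a block, 1 gene was called over all genes, 864 had an unadjusted p under 0.05 instead of 291, Prelp was at -0.22, and 0 members passed (lowest edgeR adjusted p 0.749, for Dcn), while 4 of 9 members and 25 of 76 related genes had an unadjusted p under 0.05, against 6.29% of all tested genes. Sfrp4 had an edgeR adjusted p of 0.0218 with the block.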
